A study of Mus musculus with 2 samples.

Results

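Mural cells, the pericytes and vascular smooth muscle cells that wrap blood vessels, were taken from single-cell transcriptomes of mouse cornea and limbus, the ring of tissue where the cornea meets the sclera and conjunctiva. They numbered 556 of 19696 kept cells. A kept cell had at least 500 genes, at least 1000 unique molecular identifiers (UMIs, each marking a captured RNA molecule) and at most 20% mitochondrial UMIs. Members were chosen by measured levels, per 10000 UMIs of the cell: Rgs5 and Myh11 together at 10 or more, the stromal genes Dcn, Lum and Kera together under 50, and the keratins Krt5, Krt14 and Krt15 together under 30. The raw sum of the endothelial genes Pecam1 and Cdh5 had to be under 3 UMIs. The levels of these 10 genes are therefore a description of the choice and are not results.

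The study set cornea and limbus of mice labelled Pax6 +/- against those labelled wt, with 1 library per genotype. The Pax6 protein is a transcription factor that the developing eye needs, and loss of an allele is known to cause corneal disease. The design text speaks of 2 mice per genotype, but how they relate to the libraries is not stated, and the allele, strain, age and sex are not given. Lens, retina, iris and trabecular network had been removed and most conjunctiva trimmed off before the tissue was digested with liberase and trypsin. Which vessels of the remaining tissue the cells came from is not given.

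Members numbered 502 in the library labelled Pax6 +/- and 54 in the wt library, or 5.26% (exact 95% interval 4.82 to 5.73) of 9542 kept cells and 0.532% (0.400 to 0.693) of 10154 kept cells. Among non-epithelial cells the shares were 19.4% (17.9 to 21.0) of 2591 in the library labelled Pax6 +/- and 5.53% (4.18 to 7.16) of 976 in wt. These intervals, like all below, cover counting error only. With 1 library per genotype no test between genotypes is possible, and a difference between genotypes cannot be told apart from one between dissections, digestions or libraries. Cells of the endothelial gate, defined below, also made up a larger share in the library labelled Pax6 +/-, with 4.34% against 0.739% of kept cells in wt.

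The mural cells held a median of 6514 UMIs and 2472 genes in the library labelled Pax6 +/-, against 3817 UMIs and 1746.5 genes in wt. Medians over all kept cells were 12537 and 10218.5 UMIs. The mitochondrial share had a median of 2.05% and 1.90%. Barcodes shared between the libraries numbered 40, of which 33 passed the limits in both, and none of them was a mural cell in both. Pax6 itself, read where it is expressed, had 748 CPM (counts per 1e6 UMIs of the class total without mitochondrially encoded genes) in epithelial cells of the library labelled Pax6 +/- and 378 CPM in those of wt. This goes against a lower transcript level in the heterozygote, and the genotypes are used here only as labels.

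The libraries also differed in sex-linked transcripts. Of the 502 members labelled Pax6 +/-, 222 held Xist and no Y-linked UMI, 220 held a Y-linked UMI and no Xist, 6 held both and 54 neither. In wt, 43 of the 54 members held Xist, none held a Y-linked UMI and 11 held neither. Members were 5.04% of the kept cells with Xist alone and 5.85% of those with a Y-linked UMI alone in the library labelled Pax6 +/-, and 0.448% of kept cells with Xist alone in wt. Both sex-linked subsets of the library labelled Pax6 +/- thus held a larger mural share than wt. Ratios between genotypes below were recomputed in each subset.

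The limits of the choice fell in a sparse region. The sum of Rgs5 and Myh11 was at least 11.2 and had a median of 96.5 UMIs per 10000 in members labelled Pax6 +/-, against a minimum of 18.1 and a median of 110 in wt. The nearest cells that missed only this limit stood at 9.72 and 8.65. Between 5 and 10 there were 14 and 2 cells that met the other limits, and between 10 and 15 there were 6 and 0. The keratin limit alone kept out 17 and 2 cells, the endothelial limit 2 and 1, and the stromal limit 1 and 0.

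Pericytes sit on capillaries, share their basement membrane with the endothelium and are recruited by PDGF-B acting on the receptor Pdgfrb. Smooth muscle cells ring arterioles and venules and contract through smooth muscle actin and myosin. Both kinds express Rgs5, a brake on signalling through G-protein-coupled receptors, whereas Myh11, the heavy chain of smooth muscle myosin, is strongest in arteriolar muscle. In the eye the healthy cornea has no vessels, and its blood supply ends in loops at the limbus. Mural cells of the head largely come from neural crest.

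Levels varied widely among members. Per 10000 UMIs of the cell, Acta2 had a lowest, median and highest value of 0, 26.9 and 307 in the 502 members labelled Pax6 +/- and of 0, 47.2 and 204 in the 54 of wt. Tagln had 0, 13.4 and 214 in the library labelled Pax6 +/- and 0, 33.8 and 144 in wt. Abcc9 had 0, 6.54 and 60.4 in the library labelled Pax6 +/- and 0, 4.88 and 31.8 in wt. For each of these genes the cells of both libraries covered overlapping ranges from 0 upward. Pdgfrb had 0, 4.87 and 39.1 in the library labelled Pax6 +/- and 0, 4.35 and 16.9 in wt, and Notch3 had 0, 6.30 and 36.1 and, in wt, 0, 4.95 and 14.3. Medians of both receptors lay close together in the 2 libraries.

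The label was checked on the mural markers that the choice did not use. All 6 of them (Pdgfrb, Cspg4, Notch3, Mcam, Acta2 and Tagln) were at least 2-fold higher in mural than in other non-epithelial cells of both libraries, with median log2 ratios of 4.78 in the library labelled Pax6 +/- and 5.56 in wt. Other non-epithelial cells numbered 2089 and 922 and were split by the limits of the choice into a fibroblast gate (909 and 641 cells), an endothelial gate (414 and 75) and the remaining cells (766 and 206). Most markers of the other non-epithelial lineages were low in members. The endothelial receptors Kdr and Tek and the junction protein Cldn5 had no UMI in the members of either library. Of 12 endothelial markers, 3 in the library labelled Pax6 +/- and 2 in wt had 50 CPM or more in members. In the 12 Myh11-low wt members, defined below, the highest of these markers was Flt1 at 165 CPM. The 10 endothelial markers that the choice did not use summed to 631 and 472 CPM, of which Esam, an adhesion molecule also known from pericytes, gave 323 and 313, against 7987 and 8222 CPM in the endothelial gate. The 9 fibroblast and keratocyte markers that it did not use summed to 1346 and 546 CPM, of which Col1a2 gave 938 and 303, against 57889 and 19981 CPM in the fibroblast gate. Schwann markers summed to 529 and 526 CPM, nearly all from Pmp22, and Sox10 and Cdh19 were at 0 in both libraries. The 9 immune markers summed to 96.5 and 14.9 CPM, and the lymphatic ones to 33.6 and 34.8 CPM. Melanocyte, skeletal muscle, trabecular and corneal endothelial, and haemoglobin markers each summed to under 25 CPM in both.

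**Figure D1:**
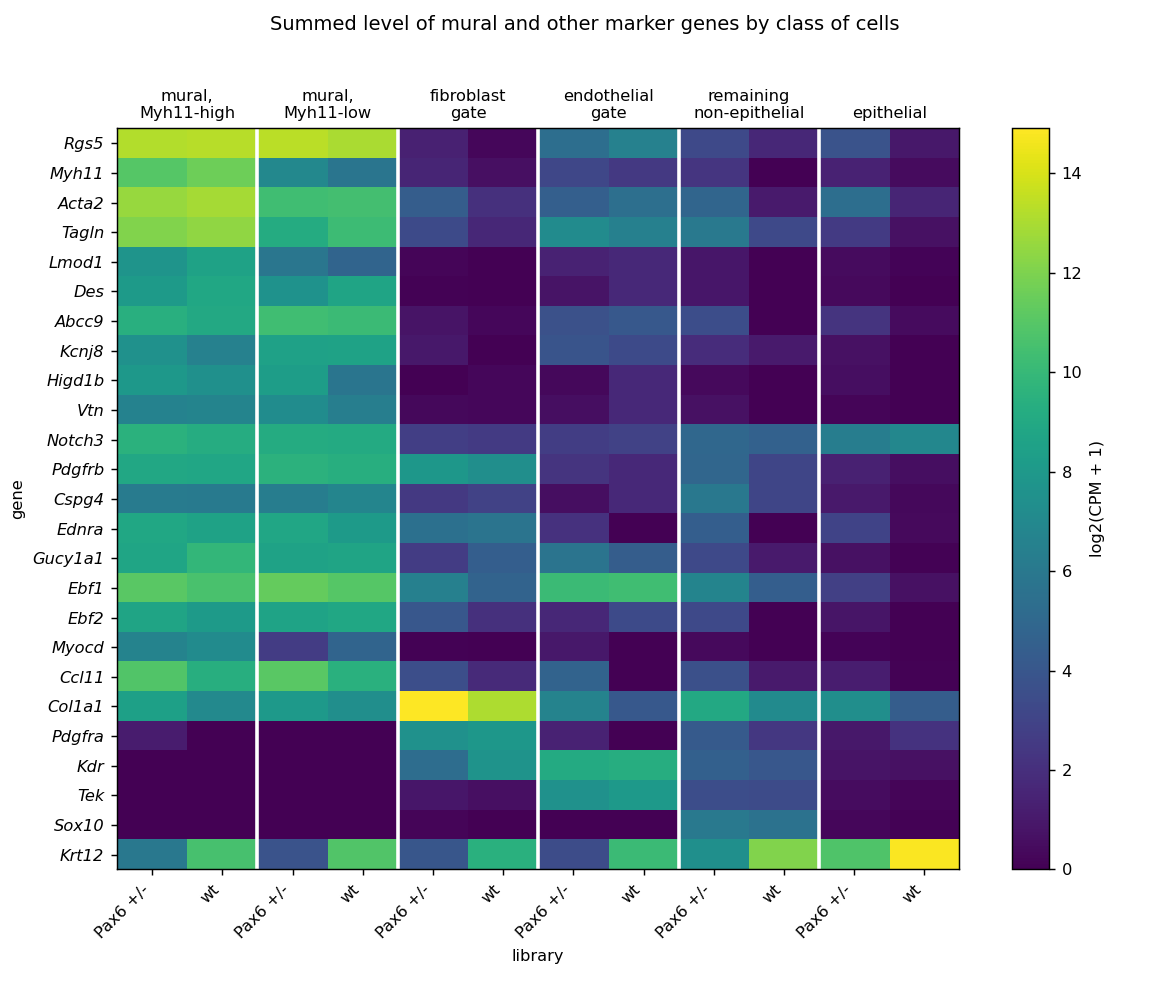
Summed levels, as log2(CPM + 1), of 25 genes (rows) in 6 classes of cells, each with the library labelled Pax6 +/- left of wt. Mural cells take the first columns, split by Myh11 as described below, and are the brightest in rows Rgs5 to Ccl11, with Ebf1 close in the endothelial gate and Pdgfrb in the fibroblast gate, while the stromal, endothelial, Schwann and epithelial genes of the last rows peak in other classes or, for Krt12, follow the library (50.7 CPM in mural cells labelled Pax6 +/- and 1579 CPM in those of wt).

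Epithelial transcripts in mural cells, which free RNA in a droplet can give, differed between the libraries. Krt12, the keratin of corneal epithelium, had 50.7 CPM in mural cells labelled Pax6 +/- and 1579 CPM in those of wt, where epithelial cells had 1777 and 29226 CPM. The 11 epithelial markers that the choice did not use summed to 242 and 2770 CPM in members. Pax6 had 27.0 and 49.6 CPM in members, below the epithelial level in each library, so no Pax6 expression was read from mural cells.

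Within each library, mural cells were set against all other non-epithelial cells. A gene was called when it had 50 CPM or more in either class and differed at least 2-fold. Because the members were chosen inside this contrast, its values describe them and are not tests. In the library labelled Pax6 +/-, 731 of 4448 genes (16.4%) were called higher and 735 (16.5%) lower. In wt, 868 of 4421 (19.6%) were higher and 812 (18.4%) lower. Of 2965 genes with 50 CPM or more in the mural cells of both libraries, 513 were at least 2-fold higher in both, 123 at least 10-fold higher in both, 73 at least 2-fold lower in both, and 0 went opposite ways.

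Genes of the contractile apparatus were far higher in members. Of 21 of its 22 genes that reached 50 CPM, 19 were higher and 0 lower in the library labelled Pax6 +/- (median log2 ratio 4.18, against -0.02 over all genes tested), and in wt 20 of 21 were higher and 0 lower (5.81, against 0.05). Acta2, smooth muscle alpha-actin, had 5149 CPM in mural and 21.9 CPM in other non-epithelial cells labelled Pax6 +/-, a ratio of 235 (214 to 259), and 6444 against 5.45 CPM in wt. Tagln, the actin-binding protein transgelin, had 3487 against 45.9 CPM in the library labelled Pax6 +/- and 4781 against 8.60 CPM in wt. The intermediate filament gene Des had 254 against 0.350 CPM in the library labelled Pax6 +/-, a ratio of 726 (351 to 1812), and 452 against 0.143 CPM in wt. These 3 genes were far lower in every other gate, with at most 43.1 CPM for Acta2, 145 CPM for Tagln and 2.27 CPM for Des, each in endothelial-gate cells. The actin nucleator Lmod1 had 175 against 0.600 CPM in the library labelled Pax6 +/- and 323 against 0.143 CPM in wt. Myl6, the light chain that many cell types share, was only 3.14-fold higher (2862 against 912 CPM) in the library labelled Pax6 +/- and 4.48-fold higher (3465 against 773 CPM) in wt. Cnn2, a calponin of non-muscle cells, was not called in either library, with ratios of 1.50 and 0.913.

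Pericyte genes were higher too. Of 18 that reached 50 CPM in the library labelled Pax6 +/-, 16 were higher and 0 lower (median log2 ratio 3.94), and in wt 15 of 17 were higher and 0 lower (5.28). Abcc9 and Kcnj8 encode the regulatory and pore subunits of the vascular ATP-sensitive potassium channel, which relaxes mural cells when it opens. Abcc9 had 825 CPM in mural and 4.60 CPM in other cells labelled Pax6 +/-, a ratio of 179 (146 to 223), and 626 against 1.15 CPM in wt. Kcnj8 had 227 against 3.80 CPM in the library labelled Pax6 +/-, a ratio of 59.7 (47.1 to 76.6), and 144 against 0.717 CPM in wt. The genes of these subunits are neighbours on chromosome 6 (GRCm38), with Kcnj8 at 142564837 to 142571614 and Abcc9 at 142587862 to 142702315, both on the minus strand, 16247 bases apart with 0 annotated genes wholly between. Higd1b, a mitochondrial protein gene used as a pericyte marker, had 265 against 0.100 CPM in the library labelled Pax6 +/- and 154 against 0.287 CPM in wt. Rgs4, which lies next to Rgs5 in the same gene family, had 780 against 1.90 CPM, a ratio of 411 (298 to 582), and 690 against 0.287 CPM in wt. Vtn, the matrix protein vitronectin, had 110 against 0.350 CPM and 99.3 against 0.287 CPM in wt.

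Pdgfrb and Steap4 separated mural cells less well, because stromal cells also held them. Pdgfrb had 545 CPM in mural cells and 237 CPM in the fibroblast gate of the library labelled Pax6 +/-, and 491 and 165 CPM in wt. Steap4, a metalloreductase gene, had 425 CPM in mural cells and 402 CPM in the fibroblast gate of the library labelled Pax6 +/-, and 402 and 661 CPM in wt. Notch3, the Notch receptor of mural cells, was 70.3-fold higher than in other non-epithelial cells of the library labelled Pax6 +/- (700 against 9.95 CPM) and 78.6-fold higher in wt (586 against 7.46 CPM). Epithelial cells, which are outside this contrast, held Notch3 at 79.5 and 120 CPM. The Notch target genes Heyl and Nrarp were called higher too, Heyl with 78.2 against 6.85 CPM and 89.4 against 2.72 CPM in wt, and Nrarp with 178 against 11.1 CPM and 189 against 3.58 CPM in wt. Over the Notch list 5 of 9 genes were higher in the library labelled Pax6 +/- and 8 of 10 in wt, with 0 lower in both.

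Receptors through which vessels sense hormones and neighbours were broadly higher. Of 18 genes for vasoactive receptors and cyclic GMP signalling that reached 50 CPM, 16 were higher and 2 lower in the library labelled Pax6 +/-, and 14 higher and 1 lower of 16 in wt. Ednra and Ednrb encode the receptors for endothelin, a strong constrictor. Ednra had 471 against 32.3 CPM in the library labelled Pax6 +/- and 362 against 41.7 CPM in wt, and Ednrb had 1086 against 103 CPM and, in wt, 417 against 77.6 CPM. Gucy1a1 and Gucy1b1 form the soluble guanylate cyclase that senses nitric oxide. Gucy1b1 had 421 against 10.4 CPM in the library labelled Pax6 +/-, a ratio of 40.5 (35.0 to 47.1), and 472 against 1.86 CPM in wt. Pde5a, which degrades cyclic GMP, had 421 against 9.90 CPM and, in wt, 496 against 10.6 CPM. Calcrl, part of the receptor for the dilator CGRP, was the called exception in both libraries, with 42.0 CPM in mural and 110 CPM in other cells labelled Pax6 +/-, and 64.5 against 189 CPM in wt, and it was highest in the endothelial gate (415 and 506 CPM). Npr3, a clearance receptor for natriuretic peptides, was the other lower gene in the library labelled Pax6 +/-, with 1.50 against 57.4 CPM.

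Channels and calcium handling followed. Of 13 channel and calcium store genes that reached 50 CPM, 10 were higher and 0 lower in the library labelled Pax6 +/-, and 11 of 12 were higher and 0 lower in wt. Trpc6, a cation channel opened by diacylglycerol, had 362 against 2.20 CPM in the library labelled Pax6 +/-, a ratio of 165 (122 to 228), and 313 against 0.143 CPM in wt. The L-type calcium channel gene Cacna1c had 1068 against 150 CPM and 616 against 71.3 CPM in wt, and part of the non-mural signal lay in the fibroblast gate (220 and 85.1 CPM). The calcium-activated chloride channel gene Ano1 had 335 against 6.95 CPM and, in wt, 258 against 17.2 CPM. Pln, phospholamban, which restrains the calcium pump of the sarcoplasmic reticulum, had 56.4 against 0.05 CPM, where the other cells held 1 UMI (ratio 1127, 200 to 44765). In wt it had 104 against 0.143 CPM, also from 1 UMI. Pln lies within Cep85l on the opposite strand, which had 118 and 54.6 CPM in members.

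Ranked by the smaller of the ratios in both libraries, the 25 leading genes were Slc38a11, Olfr558, Pln, Des, Higd1b, Rgs4, Vtn, Lmod1, Tesc, Myocd, Acta2, Mrvi1, Abcc9, Aoc3, Map3k7cl, Trpc6, Avpr1a, Elmod1, Nrip2, Kcnk3, Ccl11, Rasl12, Kcnab1, Cox4i2 and Rem1. Slc38a11, a putative amino acid transporter, led them with 139 against 0.100 CPM in the library labelled Pax6 +/- (2 UMIs in the other cells, ratio 1394, 384 to 11547) and 283 against 0.143 CPM in wt (1 UMI). Olfr558, an olfactory receptor gene, had 89.9 against 0.05 CPM in the library labelled Pax6 +/- and 199 against 0.143 CPM in wt, each from 1 UMI in the other cells. Myocd, the co-activator of serum response factor that drives smooth muscle genes, had 77.3 against 0.300 CPM in the library labelled Pax6 +/-, a ratio of 258 (117 to 709). In wt Myocd had 124 CPM and no UMI in other cells, a ratio of 289 with a class at 0 counted as 3 UMIs. Kcnk3 encodes a background potassium channel, and it had 56.6 against 0.350 CPM in the library labelled Pax6 +/- and 59.6 CPM against no UMI in wt. Cox4i2, an oxygen-sensitive subunit of cytochrome oxidase, had 501 against 5.05 CPM and 169 against 0.287 CPM in wt.

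Transcription factors of mural cells and the anterior segment were mostly higher, 16 of 21 with 2 lower in the library labelled Pax6 +/- and 10 of 16 with 4 lower in wt. Ebf2 had 415 against 11.6 CPM in the library labelled Pax6 +/- and 313 against 3.15 CPM in wt. Ebf1 was high in endothelial cells as well, with 2336 and 1653 CPM in mural cells and 1122 and 1267 CPM in the endothelial gate. Foxc1, a factor needed for the anterior segment and for vessels, had 352 against 62.2 CPM and 258 against 59.2 CPM in wt. Tbx18, which marks mural lineages in mouse, stayed under the floor, with 38.1 and 39.7 CPM in members and 0.300 and 0.287 CPM in other cells.

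Chemokines and cytokines were high in members. Of 15 genes of that list that reached 50 CPM, 11 were higher and 2 lower in the library labelled Pax6 +/-, and 10 higher and 2 lower of 14 in wt. Ccl11, the chemokine eotaxin that attracts eosinophils, had 1915 against 14.04 CPM in the library labelled Pax6 +/-, a ratio of 136 (121 to 154), and 655 against 2.15 CPM in wt. The neutrophil chemokine gene Cxcl1 had 5020 against 163 CPM and, in wt, 2457 against 97.9 CPM. Il6, the gene of interleukin 6, had 2179 against 71.1 CPM and 695 against 20.9 CPM in wt. Cxcl10, which lies inside Art3 on the opposite strand so that their reads might be confounded, had 1440 against 49.0 CPM and 1132 against 17.9 CPM in wt. The immediate early and dissociation stress list, which responds to digestion, had 4 of 20 genes higher and 0 lower in the library labelled Pax6 +/-, and 8 higher and 1 lower in wt. Its summed level was 33528 against 23815 CPM in the library labelled Pax6 +/- and 33113 against 18751 CPM in wt, and its part in the cytokine levels was not tested.

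Matrix genes divided by kind. Of 17 genes of the vascular basement membrane, 8 were higher and 3 lower in the library labelled Pax6 +/-, and 7 and 3 of 14 in wt. Col4a1, the chain of basement membrane collagen IV, had 860 against 356 CPM and 293 against 107 CPM in wt, and Itga7, a laminin receptor of muscle, had 184 against 13.5 CPM and 154 against 1.43 CPM in wt. Of 28 fibrillar and elastic matrix genes, 6 were higher and 13 lower in the library labelled Pax6 +/-, and 7 and 14 of 25 in wt. Col1a1, the main fibrillar collagen of stroma, had 331 CPM in mural and 19405 CPM in other cells labelled Pax6 +/-, and 134 against 6881 CPM in wt. Col3a1, a fibrillar collagen of vessel walls, went the other way with 2193 against 848 CPM and 1291 against 159 CPM in wt. Elastin, Eln, had 293 against 85.5 CPM and 308 against 19.5 CPM in wt. Timp3, an inhibitor of matrix proteases, had 4535 against 927 CPM and 2820 against 396 CPM in wt.

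Ligand and receptor genes of angiogenesis also divided, with 4 higher and 7 lower of 12 in the library labelled Pax6 +/- and 4 and 4 of 10 in wt. Angpt1, the ligand that mural cells are known to supply to the endothelial receptor Tek, had 155 against 27.1 CPM and 144 against 25.5 CPM in wt, while Tek had no UMI in members. In the PDGF list, Pdgfa was higher (395 against 123 CPM, and 248 against 59.9 CPM in wt). The fibroblast receptor gene Pdgfra was lower, with 0.899 against 120 CPM in the library labelled Pax6 +/- and no UMI against 191 CPM in wt. The TGF-beta and BMP list was even, with 5 higher and 5 lower of 20 in the library labelled Pax6 +/- and 7 and 4 of 19 in wt. Serpine2, a protease inhibitor of that list, had 1187 against 44.2 CPM and 1013 against 19.8 CPM in wt. Interferon and class I genes had 9 higher and 0 lower of 19 in the library labelled Pax6 +/-, and 4 and 4 of 15 in wt. Energy genes hardly separated the classes, with 1 higher and 1 lower of 12 glycolysis genes and 1 higher and 1 lower of 14 oxidative phosphorylation genes in each library. Of 10 cell cycle genes only 1 reached 50 CPM, and it was not called.

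Set against each gate, mural cells had 24.4% of genes higher and 15.7% lower than the fibroblast gate of the library labelled Pax6 +/-, and 22.7% and 18.7% in wt. Against the endothelial gate the percentages were 16.6 higher and 20.8 lower, and 19 and 21.6 in wt. Against the remaining non-epithelial cells they were 14.1 and 27.3, and 25.2 and 24.9 in wt.

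Members were then split by Myh11 at 3 UMIs per 10000. Myh11-high cells were 368 of 502 members labelled Pax6 +/- (73.3%, 69.2 to 77.1) and 42 of 54 in wt (77.8%, 64.4 to 88.0). Whether this limit parts types of cell was not tested. Between 2 and 4 UMIs per 10000 lay 70 and 2 members, and 57 and 10 had no Myh11 UMI at all. Thinned to 2000 UMIs a cell, 72.6% of 489 members labelled Pax6 +/- and 80.4% of 51 in wt were Myh11-high, against 74.6% and 78.4% of the same cells unthinned, with 13 and 3 shallower members left out. At that depth any Myh11 UMI passes the limit, whereas deeper cells need more. The shares with and without thinning therefore do not measure the effect of depth alone. Myh11-low cells need Rgs5 to be members, so Rgs5 is no result of the split. In the library labelled Pax6 +/- the Myh11-high cells had a median of 6788 UMIs and the Myh11-low cells 5665.5.

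In the library labelled Pax6 +/-, 157 of 3889 genes (4.04%) were called higher in Myh11-high cells and 117 (3.01%) lower. The 12 genes ranked lowest in Myh11-high cells were Prss27, Prss22, Asprv1, Plet1, Ltf, Psca, Cyp2a5, Krt7, Tspan1, Mal, Itgam and Pglyrp1. They came largely from 1 Myh11-low member of 18646 UMIs. It held 2080 UMIs of 8 of these genes, called surface genes here, such as Asprv1, Plet1 and Prss27, while the next member held 8. The 8 genes were picked from this ranking, so that this cell leads on them is a description. The ratios and levels of the split that follow leave the cell out, whereas the thinned members, the bins of Myh11 and the correlations below keep it. Without that cell 156 of 3878 genes (4.02%) were higher and 91 (2.35%) lower. The wt library had only 12 Myh11-low cells, so its values stand beside as levels with no count of genes.

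Of the contractile genes, 14 of 21 were higher and 0 lower (median log2 ratio 1.31, against -0.06 over all genes tested). Acta2 had 6317 CPM in Myh11-high and 1311 CPM in Myh11-low cells, a ratio of 4.82 (4.52 to 5.14), and 7565 against 1372 CPM in wt. Tagln had 4366 against 598 CPM, a ratio of 7.30 (6.65 to 8.04), and 5570 against 1207 CPM in wt. The levels of both genes in Myh11-low cells were still far above those of other non-epithelial cells. Mustn1, a small musculoskeletal protein gene, had 619 against 79.2 CPM and 1037 against 165 CPM in wt. Tpm2, a tropomyosin, had 1011 against 239 CPM and 1140 against 274 CPM in wt. Lmod1 had 211 against 58.1 CPM and, in wt, 388 against 27.4 CPM. Cnn1, calponin of differentiated smooth muscle, had 76 UMIs and 0 UMIs, or 29.7 CPM in Myh11-high cells, and 48.5 CPM in Myh11-high cells of wt with no UMI in Myh11-low ones. Mylk, Cald1, Des and Synpo2 stayed under 2-fold, at 1.88, 1.31, 1.37 and 1.41.

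The genes with the highest ratios were Unc5c, Map3k7cl, Sox6, Myocd, Pln, Myom1, Fam81a, Actg2, Ackr3, Kcnab1, Fgf13 and Slc8a1. Myocd had 99.2 against 5.28 CPM, a ratio of 18.8 (7.25 to 69.5), and 145 against 27.4 CPM in wt. Kcnab1, a beta subunit of potassium channels, had 435 against 31.7 CPM, a ratio of 13.7 (9.18 to 21.5), and 509 against 82.3 CPM in wt. Pln had 73.4 CPM and no UMI in Myh11-low cells, a ratio of 18.5 with the 0 counted as 3 UMIs (lower limit 14.9), and wt showed 127 CPM and no UMI. Myom1, a sarcomere protein gene that overlaps Myl12a on the opposite strand, had 141 against 9.24 CPM and 327 against 27.4 CPM in wt. Unc5c, a netrin receptor gene, rested on 1 UMI in Myh11-low cells and went the other way in wt, with 12.1 against 247 CPM. Map3k7cl and Sox6 rested on 2 UMIs there, Fam81a and Ackr3 on 3, Myocd on 4, and Actg2 and Slc8a1 on 5, while Fgf13 had no UMI. Ackr3 also went the other way in wt, with 12.1 against 27.4 CPM, from 2 and 1 UMIs.

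Pericyte genes leaned to the low side. Of 18, 0 were higher and 4 lower in Myh11-high cells (median log2 ratio -0.52), and only 1 was lower when members were thinned to 2000 UMIs. Kcnj8 had 182 CPM in Myh11-high and 379 CPM in Myh11-low cells, a ratio of 0.480 (0.414 to 0.558), and 90.9 against 384 CPM in wt. Abcc9, just short of the 2-fold limit, had 679 against 1333 CPM, a ratio of 0.509 (0.471 to 0.551), and 515 against 1125 CPM in wt. Other called genes included Steap4 (325 against 764 CPM, and 315 against 796 CPM in wt) and Art3 (162 against 360 CPM). Pdgfrb had 483 against 764 CPM and Vtn 97.3 against 150 CPM, both under 2-fold. In wt Pdgfrb had 455 against 658 CPM, whereas Vtn went the other way with 103 against 82.3 CPM. Higd1b had 249 against 326 CPM and also went the other way in wt, with 176 against 54.9 CPM. These wt levels of Vtn and Higd1b in Myh11-low cells rested on 3 and 2 UMIs. Notch3 ran the other way at 737 against 589 CPM, a ratio of 1.25 (1.13 to 1.39).

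Outside these lists, Ednrb had 880 CPM in Myh11-high and 1807 CPM in Myh11-low cells, a ratio of 0.487 (0.455 to 0.521), and 382 against 576 CPM in wt. Lama2, a laminin chain, had 216 against 494 CPM and 72.7 against 411 CPM in wt. Once the cell with surface genes was left out, the lowest ratios included those of Igfbp3, a binding protein for insulin-like growth factors (30.9 against 129 CPM), and of Tac1, the precursor of the neuropeptide substance P (72.3 against 259 CPM, a ratio of 0.279, 0.227 to 0.343), which were named after their values were seen. Both had no UMI in the mural cells of wt. The stress list had 0 of 20 genes called either way, so no gene of that list differed 2-fold between the sides of the split.

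The same genes were followed over 6 bins of Myh11 per 10000 UMIs: 0, above 0 to under 3, 3 to under 10, 10 to under 20, 20 to under 40, and 40 or more. The bins held 57, 77, 160, 104, 63 and 41 members labelled Pax6 +/- and 10, 2, 11, 8, 14 and 9 members of wt. Over these bins Acta2 stood at 1136, 1380, 3192, 5807, 8162 and 15289 CPM in the library labelled Pax6 +/-. Kcnj8 stood at 435, 341, 297, 128, 107 and 14.7 CPM over the same bins. Abcc9 stood at 1333, 1293, 955, 598, 492 and 177 CPM. The actin gene thus had its highest level, and the channel genes their lowest, in the cells richest in Myh11, with intermediate levels between. In that library the steepest of the 5 steps between neighbouring bins for Acta2 and Tagln was across the limit of 3, at 2.31-fold and 2.87-fold. For Abcc9 and Kcnj8 it was the step into the last bin. Neither held in wt, where bins had 2 to 14 cells. There the step across 3 was 1.45-fold for Acta2 and 1.41-fold for Tagln. The steepest was 3.18-fold into the second bin for Acta2 and 1.91-fold into the bin from 20 for Tagln. Cnn1 stayed at 0 in the first 2 bins and reached 141 CPM in the last. Notch3 moved little, between 574 and 922 CPM. Rgs5 had 10175 CPM in the first bin and 2797 CPM in the last. In wt the Rgs5 levels of the end bins were 8719 and 9084 CPM, and Acta2 stood at 883, 2804, 4070, 4388, 7971 and 12000 CPM.

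**Figure D2:**
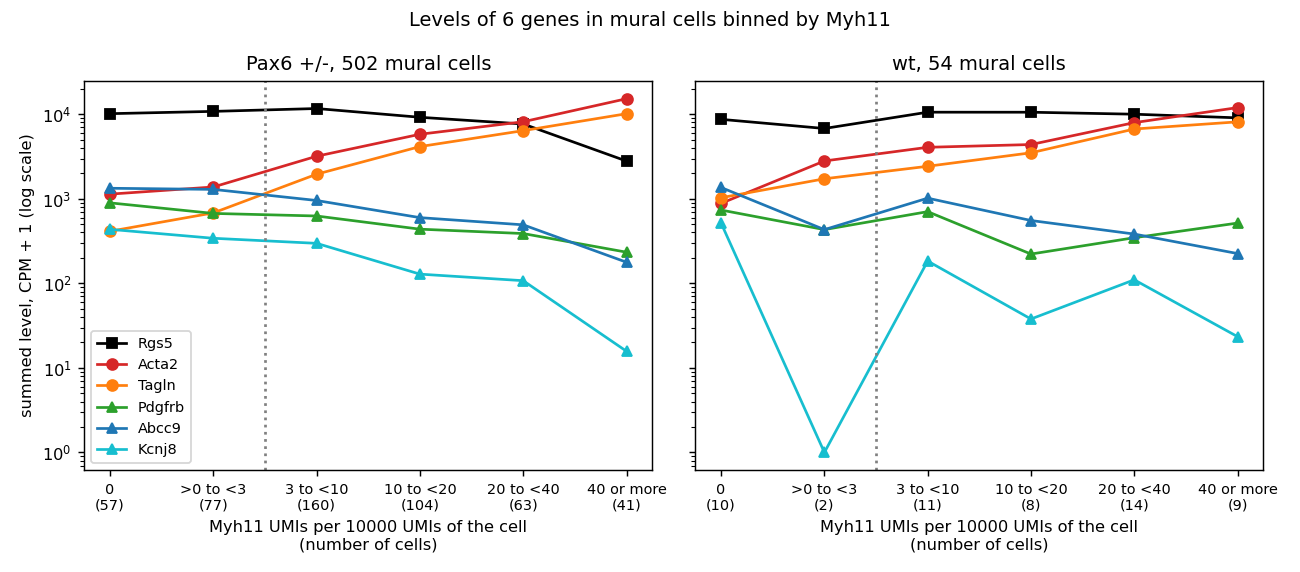
Summed levels (CPM + 1, log axis) of 6 genes in mural cells binned by their Myh11 level, for the library labelled Pax6 +/- (left) and wt (right), with the number of cells under each bin and the limit of 3 as a dotted line. Acta2 and Tagln are higher and Abcc9 and Kcnj8 lower toward the right, most smoothly on the left where bins hold 41 to 160 cells. The wt bin with Kcnj8 at 0 holds 2 cells.

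A small end group stood out by low Rgs5. Members with Rgs5 under 10 UMIs per 10000 numbered 17 in the library labelled Pax6 +/- and 3 in wt, all Myh11-high, which the choice largely forces. They held Acta2 at 15148 and 18066 CPM and Cnn1 at 305 and 250 CPM, whereas Kcnj8 was at 8.96 CPM in the library labelled Pax6 +/- and 0 in wt. Across cells, as a description over values that share a library and a per-cell total, Acta2 and Tagln had a Spearman rho of 0.86 in 502 members labelled Pax6 +/- and 0.89 in 54 of wt. Acta2 and Abcc9 had rho of -0.52 and -0.62, and Abcc9 and Kcnj8 of 0.47 and 0.41.

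The 5' flanks of mural genes were read from RefSeq (GRCm38.p6), 250 bases before to 50 after the annotated start. The CArG box, the site of serum response factor through which Myocd acts, was searched by its standard pattern on both strands. Capitals mark matches to that pattern with at most 1 inner base off. Acta2 (chr19:34255324-34255623, minus strand) and Myl9 (chr2:156775214-156775513, plus strand) are shown as contractile genes higher in Myh11-high cells. Abcc9 (chr6:142702225-142702524, minus strand) and Kcnj8 (chr6:142571565-142571864, minus strand) are shown as pericyte genes lower there.
Acta2: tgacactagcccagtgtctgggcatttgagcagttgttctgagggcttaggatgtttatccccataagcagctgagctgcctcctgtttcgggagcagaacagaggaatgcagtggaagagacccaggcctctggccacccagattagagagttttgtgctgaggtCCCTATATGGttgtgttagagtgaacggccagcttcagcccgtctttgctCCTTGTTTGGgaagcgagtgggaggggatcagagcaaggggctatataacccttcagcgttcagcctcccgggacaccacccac
Myl9: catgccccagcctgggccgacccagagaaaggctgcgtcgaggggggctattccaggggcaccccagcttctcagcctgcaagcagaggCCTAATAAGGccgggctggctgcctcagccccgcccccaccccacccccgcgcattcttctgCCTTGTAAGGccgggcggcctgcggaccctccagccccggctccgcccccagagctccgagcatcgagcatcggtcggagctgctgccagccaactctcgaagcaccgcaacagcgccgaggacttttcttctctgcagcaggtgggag
Abcc9: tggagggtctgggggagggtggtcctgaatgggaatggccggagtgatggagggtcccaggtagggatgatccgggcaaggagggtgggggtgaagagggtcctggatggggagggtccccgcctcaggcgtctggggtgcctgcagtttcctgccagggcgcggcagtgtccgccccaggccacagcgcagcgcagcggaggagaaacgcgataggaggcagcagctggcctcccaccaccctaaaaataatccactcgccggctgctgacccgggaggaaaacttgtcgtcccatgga
Kcnj8: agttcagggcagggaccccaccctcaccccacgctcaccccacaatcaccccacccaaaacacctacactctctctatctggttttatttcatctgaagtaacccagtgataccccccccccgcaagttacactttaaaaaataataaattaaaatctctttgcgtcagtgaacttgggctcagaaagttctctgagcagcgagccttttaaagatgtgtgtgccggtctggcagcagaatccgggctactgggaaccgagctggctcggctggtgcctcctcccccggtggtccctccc
Acta2 held 2 matches with 1 base off and 0 exact ones, Myl9 held 1 exact match and 1 with a base off, and Abcc9 and Kcnj8 held none. Among windows of the contractile list, where 19 of 22 genes had at least 1 window, 3 of 22 windows (13.6%) held an exact match and 5 (22.7%) one with at most 1 base off. Of all 32851 windows, 1.63% held an exact match and 9.98% one with at most 1 base off. The exact matches were in windows of Myl9, Myl6 and Cnn2, and Myl6 and Cnn2 are the genes of the list described above as shared with other cell types or not called. Windows of Rgs5 and Cnn1 held neither. Those of Mustn1, Tpm2, Lmod1, Csrp1 and Flna, whose ratios in the split exceeded that of Myl9, held neither as well. This says only that the letters are not in those 300 bases.

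Mural cells labelled Pax6 +/- were last set against those of wt. With 54 cells in wt, a level of 50 CPM there rests on about 10 UMIs. Of 4057 genes that reached 50 CPM in either library, 454 (11.2%) were at least 2-fold higher in the library labelled Pax6 +/- and 255 (6.29%) at least 2-fold lower, and the median log2 ratio was 0.03. In the library where it was higher, the gene stood at or above its epithelial level for 387 of the 454 and 189 of the 255. Of these, 328 and 146 were 2-fold in the same direction in both sex-linked subsets. The same counts were 9.43% and 6.14% in the fibroblast gate, 7.48% and 2.83% in the endothelial gate and 12.3% and 7.49% in epithelial cells, so the share in mural cells was between those of the other classes.

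Mural markers outside the choice and contractile genes mostly stayed within 2-fold. Pdgfrb had 545 CPM in members labelled Pax6 +/- and 491 CPM in those of wt, Notch3 had 700 and 586 CPM, and Abcc9 had 825 and 626 CPM. Of 21 contractile genes 0 were called in either direction (median log2 ratio -0.32), and 4 were lower in the subset with Y-linked UMIs. Acta2 had 5149 CPM in members labelled Pax6 +/- and 6444 CPM in those of wt, a ratio of 0.799 (0.755 to 0.846). Flna, filamin A, had 447 and 784 CPM, a ratio of 0.570 (0.483 to 0.676). Des, Lmod1 and Mustn1 had ratios of 0.563, 0.543 and 0.561. Channel genes had 0 of 13 called either way. Within the library labelled Pax6 +/- the subsets themselves differed, as Acta2 had 5841 CPM in members with Xist alone and 4553 CPM in those with a Y-linked UMI alone, and Cnn1 had 42.9 and 3.43 CPM.

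Among pericyte genes 2 of 18 were higher and 1 lower. Cox4i2 had 501 CPM in members labelled Pax6 +/- and 169 CPM in those of wt, a ratio of 2.97 (2.11 to 4.30), and Art3 had 206 and 54.6 CPM. Colec11, a collectin gene, was lower with 35.7 and 89.4 CPM. Of 17 vasoactive genes 5 were higher and 0 lower. Ednrb had 1086 and 417 CPM, a ratio of 2.60 (2.10 to 3.27), and 2.01 and 3.41 in the subsets with Xist and with Y-linked UMIs. Avpr1a, the vasopressin receptor of vessels, had 190 and 69.5 CPM, S1pr3, a receptor for sphingosine 1-phosphate, had 268 and 69.5 CPM, and Ptgir, the prostacyclin receptor, had 152 and 59.6 CPM. Gucy1a1 was near 2-fold lower, with 422 and 844 CPM and a ratio of 0.500 (0.427 to 0.590).

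Matrix genes were called higher well above the 11.2% of all genes. Of 15 basement membrane genes 7 were higher and 0 lower (median log2 ratio 0.90), although only 4 were higher in the subset with Xist alone. Col4a1 had 860 CPM in members labelled Pax6 +/- and 293 CPM in those of wt, a ratio of 2.94 (2.27 to 3.87). Col4a2, its partner chain, whose gene overlaps it on the opposite strand, had 656 and 154 CPM, a ratio of 4.26 (2.99 to 6.28). In the endothelial gate Col4a1 had 914 and 651 CPM and in the fibroblast gate 189 and 72.0 CPM, higher in the library labelled Pax6 +/- in each class. Col18a1, Nid1 and Lamc1, all basement membrane components, had ratios of 3.70, 2.21 and 2.13. The same list had 5 higher and 0 lower of 12 in the fibroblast gate, 2 and 0 of 14 in the endothelial gate and 2 and 1 of 6 in epithelial cells. Of 24 fibrillar and elastic matrix genes 8 were higher and 0 lower in members (median 0.79). That list had 10 higher and 0 lower of 25 in the fibroblast gate, 8 and 0 of 15 in the endothelial gate and 6 and 2 of 8 in epithelial cells, with more genes higher than lower in every class. Tnc, tenascin C, a matrix protein of remodelling tissue, had 1262 and 213 CPM, a ratio of 5.91 (4.38 to 8.18), and in the fibroblast gate 211 and 21.0 CPM. Col6a3, a chain of collagen VI, had 275 and 54.6 CPM in members but 1497 and 2039 CPM in the fibroblast gate. Col1a1 had 331 and 134 CPM in members beside 30661 and 8523 CPM in fibroblast-gate cells. The 9 fibroblast and keratocyte markers that the choice did not use summed to 1346 and 546 CPM in members, and the part of stromal free RNA in the fibrillar collagens was not tested.

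Immune signalling genes were also called higher more often than the 11.2% of all genes. Of 15 chemokine, cytokine and adhesion genes 8 were higher and 0 lower (median log2 ratio 1.03), and in the fibroblast gate 8 of 13 were higher and 0 lower. Ccl2, which attracts monocytes, had 2625 CPM in members labelled Pax6 +/- and 660 CPM in those of wt, a ratio of 3.98 (3.35 to 4.76). Its neighbours on chromosome 11, Ccl7 and Ccl11, had 476 and 109 CPM and 1915 and 655 CPM. Fibroblast-gate cells held Ccl2 at only 142 and 68.4 CPM and Ccl11 at 10.8 and 2.49 CPM. Il6 had 2179 and 695 CPM in members, a ratio of 3.14 (2.65 to 3.73), and Cxcl1 had 5020 and 2457 CPM. Of 19 interferon and class I genes 11 were higher and 0 lower (median 1.29), as were 15 of 17 in epithelial cells, against 2 of 11 in the fibroblast gate and 2 of 19, with 2 lower, in the endothelial gate. Ifit1, an interferon-induced gene, had 281 and 64.5 CPM in members, a ratio of 4.36 (2.54 to 8.21), and 98.7 and 36.0 CPM in epithelial cells. Isg15, a ubiquitin-like interferon product, had 766 and 313 CPM in members, and H2-D1, a class I gene whose reads may be split with close copies, had 539 and 179 CPM. Ly6e had 137 and 14.9 CPM in members but 827 and 109 CPM in epithelial cells, above the mural level in both libraries. Of 20 stress genes 2 were higher and 0 lower, and these were Hspa1a (881 and 318 CPM) and Hspa1b (640 and 218 CPM), near-identical heat shock genes whose reads cannot be told apart with certainty.

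**Figure D3:**
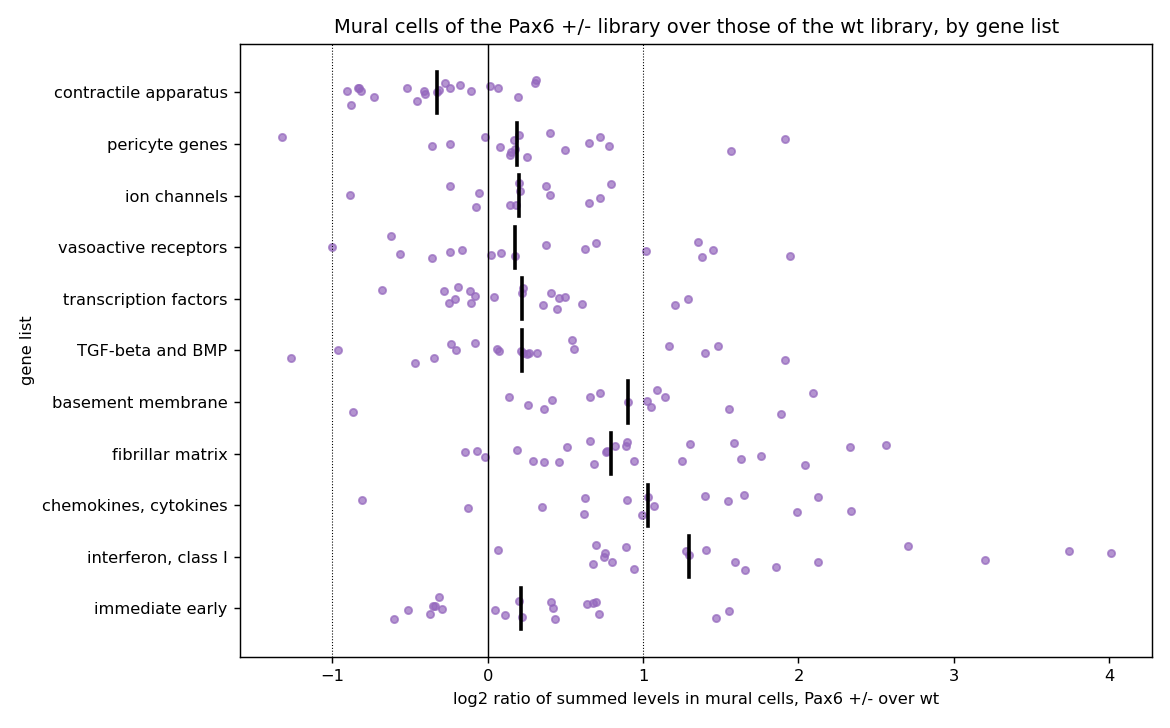
Log2 ratio of summed levels in mural cells of the library labelled Pax6 +/- over wt for the genes of 11 lists with 50 CPM or more in either library. Each point is a gene, black bars are list medians and dotted lines mark 2-fold. The contractile bar lies below 0 at -0.32, while basement membrane, fibrillar matrix, chemokine and interferon bars lie between 0.79 and 1.29.

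Genes of TGF-beta and BMP signalling were called in both directions. Of 20 such genes 4 were higher and 1 lower, beside 11.2% higher and 6.29% lower over all genes. Id4, a BMP-responsive inhibitor of transcription, had 380 and 144 CPM, a ratio of 2.64 (1.83 to 3.96), whereas its relative Id2 was lower with 132 and 318 CPM, a ratio of 0.416 (0.319 to 0.550). Id2 differed between the subsets, at 0.599 with Xist alone and 0.186 with Y-linked UMIs alone. Of 10 Notch genes 0 were higher and 1, Hey2, was lower with 27.9 and 59.6 CPM. Of 19 transcription factors 2 were higher, Tbx3 with 85.1 and 34.8 CPM and Lmcd1 with 332 and 144 CPM, and 0 lower.

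Ranked over all genes at or above their epithelial level, the highest ratios reported here belonged to Pde10a, Ppp1r21, Shroom4, Man1c1, Nme7, Gbp2b, Phox2a, Mcoln2 and Creb5. All of them rested on 1 to 4 UMIs in wt except Gbp2b, which had none. Nme7, a kinase gene, had 355 and 19.9 CPM, a ratio of 17.9 (6.96 to 65.7), and was also higher in the fibroblast gate (103 and 21.2 CPM) and the endothelial gate (121 and 22.7 CPM). Creb5, a transcription factor gene, had 272 and 19.9 CPM, a ratio of 13.7 (5.33 to 50.4). Gbp2b, of the guanylate-binding proteins that interferon induces and with close copies, had 240 CPM and no UMI in wt, so it was at least 16.1-fold higher, and the fibroblast and endothelial gates of wt had no UMI of it either.

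The lowest ratios belonged to Mpp7, Naaa, Il31ra, Grm7, Sgip1, Gm42418, Synj2, Rab6b, Gm15564 and Slc15a2. Mpp7, a scaffold protein of cell polarity, had 21.6 CPM in members labelled Pax6 +/- and 308 CPM in those of wt, a ratio of 0.0701 (0.0492 to 0.100). In endothelial-gate cells Mpp7 had 174 and 161 CPM, with no such difference. Il31ra, a cytokine receptor gene, had 28.2 and 328 CPM in members and was also lower in the fibroblast gate (44.9 and 224 CPM) and the endothelial gate (41.4 and 424 CPM). Sgip1, a gene of endocytosis, had 18.3 and 169 CPM. Gm42418, a transcript that overlaps ribosomal RNA, had 9976 CPM in members labelled Pax6 +/- and 89484 CPM in those of wt, and it was lower in every class, down to 10816 and 31145 CPM in epithelial cells. The balance of calls moved with the scaling and with the genes that reached the floor. Without Gm42418 in the totals 4250 genes reached 50 CPM in place of 4057, and 382 were higher and 422 lower. With TMM scaling 564 of 4057 were higher and 188 lower.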

How the data were processed

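The deposited files hold raw UMI counts per gene and cell barcode for 1 library per genotype, made by the authors with Cell Ranger 8.0.0 per the file headers. The genome build is GRCm38 per the submitters' processing notes. Gene coordinates came from GENCODE vM21 on the same build.

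Cells were kept and assigned by the limits given above, and no doublet caller was run, so only the limits on keratin, stromal and endothelial genes act against mixed droplets. Non-epithelial cells had Krt12 under 100, Epcam, Cdh1, Perp and Dsp together under 20, and the 3 keratins under 30 UMIs per 10000. The fibroblast gate is the non-epithelial cells with Dcn, Lum and Kera together at 50 or more UMIs per 10000. The endothelial gate is those outside it with a raw sum of Pecam1 and Cdh5 of 3 UMIs or more. Cells of both gates thus fail the mural choice. Total UMIs were 131567589 in the library labelled Pax6 +/- and 124540296 in wt. Raw UMIs were summed per class and library and divided by the class total without mitochondrially encoded genes (CPM). Ratios carry exact conditional binomial 95% intervals and shares carry Clopper-Pearson ones, which cover counting error only. A class at 0 was counted as 3 UMIs.

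Genes were called by size alone, since cells are not replicates and no test between 1 library and another is possible. Members and gene lists were chosen with earlier results of these data known. Named genes were the 25 leading ratios of mural over other cells, the 12 highest and 12 lowest of the Myh11 split and the 10 highest and 10 lowest between genotypes, beside the genes of the fixed lists. Some of these genes are not reported here by name. Python 3.11.15, numpy 2.4.6, scipy 1.17.1 and pandas 2.3.3 were used, with edgeR 4.0.16 for an alternative scaling (TMM). The calculation was tested on simulated data.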

Additional observations from a re-analysis of the deposited data

How the results depend on the processing

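No paired analysis was possible because each genotype has 1 library, and for the same reason no library could be left out in turn. Among summary values 70 of 88 kept within 1.5 times or within their interval. Taken over non-epithelial cells in place of all kept cells, the mural share was 19.4% in the library labelled Pax6 +/- and 5.53% in wt, and among cells with Y-linked UMIs alone it was 5.85%. With a floor of 100 CPM, 422 genes were lower in mural than in other cells labelled Pax6 +/- and 441 in wt, the split gave 82 higher and 60 lower, and the genotypes 264 higher and 103 lower. With a floor of 5 CPM, 1308 were higher and 2502 lower in mural cells labelled Pax6 +/-, 2321 and 1938 in wt, and 1218 and 1682 between genotypes. Without Gm42418 in the totals, 422 genes were lower between genotypes. With 1 raw Myh11 UMI as the limit 88.6% of members labelled Pax6 +/- were Myh11-high, and with 6 per 10000 it was 55.8%. TMM moved all log2 ratios by 0.14 for mural over other cells labelled Pax6 +/-, -0.12 in wt, 0.07 in the split and 0.14 between genotypes. Over named genes and lists 1406 values kept, 121 moved and 11 reversed, all of these in the split. With 1 raw Myh11 UMI as the limit the log2 ratios of Prss27, Prss22, Asprv1 and Plet1 became 2.58, 2.92, 4.90 and 5.27, because the cell that holds these genes changes side. With members thinned to 2000 UMIs they became 1.84, 1.90, 2.93 and 2.77, and that of Unc5c -0.10. Without that cell those of Asprv1 and Plet1 were 0.24 and 0.41. Beyond what is said here the causes were not tested. Depth limits the wt side, whose 12 Myh11-low cells and 54 members leave many genes with a handful of UMIs.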
